A study of Homo sapiens with 15 samples.

Results

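The genes described here are 8 genes that code for secreted antagonists of Wnt signalling, SFRP1, SFRP2, SFRP4, SFRP5, DKK1, DKK2, DKK3 and WIF1, out of 19382 protein-coding genes with a promoter and 18496 with a gene body that could be tested. They were picked by name and function with earlier results of these data known, and no threshold on a measured value was used. The cells were HCT116, a line derived from a colorectal carcinoma, and carried a dox-inducible short hairpin RNA against UHRF1 (shUHRF1) or DNMT1 (shDNMT1). For shUHRF1 there were 3 clones, named Cl.3, Cl.6 and Cl.9, and for shDNMT1 2 bulk populations, named R1 and R2. Their DNA was read by whole-genome bisulfite sequencing at Baseline (day 14 without dox), Knockdown (day 14 in 10 ng/mL dox) and Recovery (day 28, after 14 days in dox and 14 days without), which gave 15 libraries in 6 groups. All shUHRF1 populations were single clones and both shDNMT1 populations were bulk cultures, and their counts were held in separate tables, so that hairpin, type of culture and table cannot be told apart. Among the clones, Cl.3 and Cl.6 shared a table and Cl.9 had its own, so that a trait of Cl.9 cannot be told apart from its table. Whether UHRF1 and DNMT1 protein fell was not analysed here.

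Wnt ligands signal through Frizzled receptors and LRP co-receptors to stabilise beta-catenin, and most colorectal cancers carry a lesion that keeps this pathway active. The secreted frizzled-related proteins (SFRP genes) and WIF1 bind Wnt ligands outside the cell, whereas the Dickkopf proteins DKK1 and DKK2 bind the LRP co-receptors, and DKK3 is a divergent family member whose action on Wnt is less settled. Several of these genes are textbook examples of CpG island promoters that gain methylation in colorectal tumours. Methylation in dividing cells is kept by DNMT1, the methyltransferase that copies it onto new DNA, and by UHRF1, which recognises half-methylated sites and directs DNMT1 to them.

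The promoter of a gene was taken as all CpGs within 1000 bp of any annotated transcript start, the gene body as the rest of the gene, and the methylation level (mC) as methylated reads over all reads at those CpGs, in percent. The 8 promoters held between 113 CpGs (DKK2) and 282 CpGs (DKK3) and were covered by 401 to 4480 reads in a library. The libraries held between 315732617 and 590592161 reads at CpGs, with a median of 11 to 20 reads per CpG, and mC over all CpGs was 71.7% to 76.5% at Baseline, 39.4% to 62.5% at Knockdown and 53.1% to 72.9% at Recovery. Cl.9 was the deepest clone, with medians of 20, 20 and 19 reads per CpG at Baseline, Knockdown and Recovery, against 11 to 13 in Cl.3 and Cl.6. Coverage of the methylated CpG-rich promoters was thin. The promoters of SFRP1, SFRP2, SFRP5 and WIF1 had a median over the 5 Baseline libraries of 43.2%, 44.1%, 35.5% and 42.8% of the library's median reads per CpG, and the promoter of DKK1 126%. At Knockdown these medians were 47.8%, 46.2%, 38.8%, 52.4% and 132%. Single libraries moved more. In R2 the SFRP5 promoter had 28.9%, 58.3% and 24.4% at Baseline, Knockdown and Recovery, and the WIF1 promoter 43.4%, 74.1% and 36.7%. The SFRP5 promoter of Cl.6 went the other way, from 37.8% at Baseline to 31.3% at Knockdown. The part of this uneven coverage in the changes below was not tested.

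At Baseline the 8 promoters fell into 3 levels. The promoter of DKK1 was unmethylated, with an mC of 0.724%, 2.51% and 0.362% in Cl.3, Cl.6 and Cl.9 and of 1.17% and 0.545% in R1 and R2. The promoter of SFRP4 was intermediate, with 65.5%, 55.5% and 50.3% in the clones, and the bulk populations had 60.5% and 60.8%. The other 6 promoters lay between 78.8% (SFRP1 in Cl.3) and 97.4% (WIF1 in Cl.6), with means over the 5 populations of 83.2% (SFRP1), 85.7% (DKK3), 89.8% (SFRP5), 91.4% (WIF1), 92.8% (SFRP2) and 93.3% (DKK2). The ranges of neighbouring genes in this order overlapped over the populations. The order also depends on which starts are pooled, since the SFRP1 window at the 5′ end stood at 93.0% to 94.9% in the Baseline libraries, and its second window, at 65.7% to 75.8%, lowered the pooled value. The median Baseline mC over all tested promoters was 51.1%, and these 6 lay well above the middle of all promoters. The domain lists placed the gene's 5′ end of SFRP1, SFRP2, SFRP5, DKK2, DKK3 and WIF1 inside a highly methylated domain (HMD) in all 5 Baseline libraries, that of SFRP4 inside a partially methylated domain (PMD), and that of DKK1 inside an unmethylated region (UMR). As a check of the cell line's label, the promoters of epithelial genes such as CDH1, EPCAM and KRT8 had a median Baseline mC of 28.0% over 9 genes, whereas the promoters of 5 fibroblast, 5 leukocyte and 3 endothelial genes had medians of 89.0%, 90.8% and 91.6%, and 3 of the 9 epithelial promoters were also at or above 50%.

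**Figure D1:**
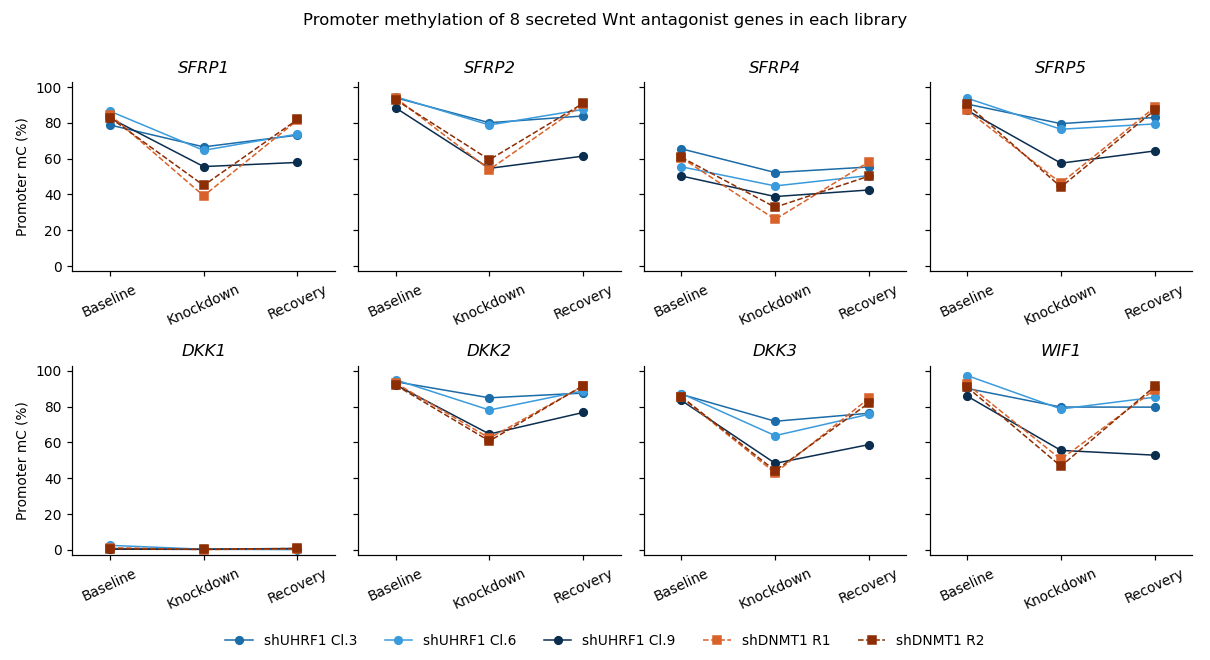
Promoter mC in percent (vertical axis) of each of the 8 genes at Baseline, Knockdown and Recovery, with 1 line per population (circles, shUHRF1 clones, and squares, shDNMT1 bulk populations). All lines are lower at Knockdown than at Baseline, those of DKK1 at levels of 2.51% or below, and the squares return close to their Baseline level except SFRP4 in R2, at 50.3% against 60.8%.

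The short sequences below show what densely packed and isolated CpGs look like in these promoters. Each is 30 bases of the hg38 reference on the gene's own strand, with CpGs in capitals. The first 4 are the most CpG-rich stretches of the SFRP2, SFRP4, DKK2 and DKK1 promoters, at chr4:153789005-153789034, chr7:37916455-37916484, chr4:107036273-107036302 and chr10:52314472-52314501. The last 2 are centred on the CpGs of DKK2 and WIF1, which had the farthest nearest neighbours when the most isolated CpG of each promoter other than SFRP1 was compared, at chr4:107284231-107284260 and chr12:65066707-65066736, whose nearest CpGs were 301 and 604 bp away.
SFRP2 dense: tgCGCGCGggcttgcagCGcctCGccCGCG
SFRP4 dense: CGtgCGCGgCGCGccctgCGaggCGgtgCG
DKK2 dense: agaaagCGggagccCGCGgCGagCGtagCG
DKK1 dense: ttgtCGCGatggtagCGgCGgctctCGgCG
DKK2 isolated: gggtaccaaattctCGttaaggctacaata
WIF1 isolated: ccctttgtaccccaCGatgtatgaatggtg

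At Knockdown the dense stretch of SFRP4 read 100%, 89.7% and 96.2% methylated in Cl.3, Cl.6 and Cl.9 but 51.0% and 54.0% in R1 and R2, from 92.9% to 100% in the 5 Baseline libraries. The dense stretch of SFRP2 read 100%, 100% and 87.7% in the clones, where R1 and R2 read 80.0% and 65.7%, and that of DKK2 read 100%, 100% and 86.7% against 89.2% and 86.7%. In these 3 stretches the clones other than Cl.9 thus stayed at or above 89.7%. The dense stretch of DKK1 held at most 4.35% in any library. The isolated CpG of DKK2 went from 87.5%, 91.7% and 88.2% at Baseline to 60.0%, 58.3% and 25.0% in the clones, and from 94.1% and 92.3% to 33.3% and 46.7% in the bulk populations. That of WIF1 went from 90.5%, 100% and 81.5% to 66.7%, 80.0% and 41.7% in the clones, and from 92.9% and 81.8% to 52.0% and 60.0% in the bulk populations. The isolated CpGs of DKK3 and SFRP5 lost less in the clones. That of DKK3, 212 bp from its neighbour, read 96.7%, 100% and 93.5% at Baseline and 96.9%, 85.7% and 86.5% at Knockdown in the clones, while R1 and R2 read 63.9% and 59.1%. That of SFRP5, 56 bp from its neighbour, read 95.7%, 86.4% and 82.8% at Knockdown in the clones. The isolated CpG of SFRP4, 282 bp from its neighbour, went from 80.0%, 37.5% and 100% to 46.7%, 46.7% and 25.0%, a large fall in Cl.3 and Cl.9 but not in Cl.6. These are small counts, from 3 reads (SFRP2) to 149 reads (DKK1) over a printed stretch in a library, and they are given without a test.

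Several genes have more than 1 transcript start, and the CpG-rich window was not always the one at the 5′ end. The annotated 5′ end of DKK2 (ENSG00000155011, chromosome 4, 106921802 to 107283806 in hg38, minus strand) lay in a window of 5 CpGs, and its CpG island lay inside the gene at 107034812 to 107037313 with 108 CpGs. SFRP4 (ENSG00000106483, chromosome 7, 37905932 to 38025695, minus strand) had 6 CpGs around its 5′ end, 4 around another start and 106 in the window at 37915817 to 37917817. The window at the 5′ end of DKK3 (ENSG00000050165, chromosome 11, 11956207 to 12009769, minus strand) held 177 of the promoter's 282 CpGs, and 4 more windows lay downstream. WIF1 (ENSG00000156076, chromosome 12, 65050626 to 65121305, minus strand) had 111 CpGs at its 5′ end and 6 at a downstream start. SFRP1 (ENSG00000104332, chromosome 8, 41261962 to 41309473, minus strand) had 167 and 35 CpGs in its 2 windows. SFRP2 (ENSG00000145423, chromosome 4, 153780591 to 153789083, minus strand), SFRP5 (ENSG00000120057, chromosome 10, 97766751 to 97771999, minus strand) and DKK1 (ENSG00000107984, chromosome 10, 52314281 to 52318042, plus strand) had 1 window each.

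The first comparison asked how far each knockdown lowered the methylation of these genes. After shUHRF1 induction the 7 methylated promoters lost between 8.98 percentage points (DKK2 in Cl.3) and 35.2 points (DKK3 in Cl.9), and after shDNMT1 induction between 27.9 points (SFRP4 in R2) and 46.3 points (SFRP5 in R2). All 8 promoters passed edgeR's quasi-likelihood test as lower in both knockdowns, with Benjamini-Hochberg adjustment over all promoters. So did 97.0% of all promoters with shUHRF1 and 98.7% with shDNMT1, and the 8 genes therefore did what nearly every promoter did. The median change of the 8 promoters was -19.5 points with shUHRF1 and -39.2 points with shDNMT1, against -13.9 and -23.9 points over all promoters, and against -19.4 and -34.8 points over the 9959 promoters with a Baseline mC of at least 50%.

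Among the frizzled-related genes, the SFRP1 promoter went from 78.8%, 86.6% and 82.8% at Baseline to 66.6%, 64.7% and 55.6% at Knockdown in Cl.3, Cl.6 and Cl.9. In R1 and R2 it went from 84.6% and 83.0% to 39.2% and 45.1%. The mean paired change was -20.4 ± 7.57 points with shUHRF1 (SD, n = 3) and -41.7 ± 5.30 points with shDNMT1 (SD, n = 2), and the log2 odds ratios of the fitted model were -1.57 ± 0.24 and -2.83 ± 0.29 (SE, edgeR adjusted p = 2.55e-07 and 3.24e-11). The counting error of single values was smaller than these changes. The lowest-covered SFRP1 value, 78.8% from 794 reads, had a Wilson 95% confidence interval of 75.9% to 81.5%, which covers counting error only.

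The SFRP2 promoter went from 94.1%, 94.6% and 88.4% to 80.1%, 78.8% and 54.6% in the clones. In R1 and R2 it went from 94.0% and 92.9% to 53.9% and 59.4%, so that Cl.9 lay among the bulk populations. The SFRP5 promoter went from 90.5%, 93.8% and 87.0% to 79.6%, 76.5% and 57.5% in the clones and from 87.1% and 90.5% to 46.3% and 44.2% in R1 and R2. The pooled SFRP4 promoter moved by a similar amount in each clone, at -13.3, -10.7 and -11.5 points, and its Cl.9 was not the most affected. Its change there was -11.8 ± 1.31 points (SD, n = 3, log2 odds ratio -0.69 ± 0.23, edgeR adjusted p = 0.00543, or 0.0939 when populations were not paired), the smallest of the 7 methylated promoters, against -31.2 ± 4.60 points (SD, n = 2) in the bulk populations. Around the 5′ end of SFRP4, at 6 CpGs, the changes were -26.1, -9.09 and -40.3 points in the clones (mean -25.2), and there Cl.9 was the most affected. The SFRP4 promoter pools reads of unlike CpGs whose proportions differed between stages. Low-density CpGs, the less methylated ones here, held 44%, 34.7% and 38.5% of its reads at Baseline and 32.5%, 32.7% and 26.2% at Knockdown in the clones, and the pooled mean of -11.8 points was smaller than the means of both density classes given below.

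The SFRP4 island was not evenly methylated. In the shUHRF1 clones the 200-bp bin centred 500 bp upstream of its CpG-rich start had a mean Baseline mC of 4.26%, the bin 100 bp upstream 41.9%, and the bin 300 bp downstream 98.6%. The bulk populations showed the same steps, with 3.48%, 32.5% and 96.4%. At Knockdown the downstream bin stood at 83.3% ± 2.20 (SD, n = 3) in the clones and at 44.7% ± 8.33 (SD, n = 2) in the bulk populations. The 5′ end of SFRP4, at position 38025695 and far upstream of that island, was called inside a UMR as well as, or in place of, a PMD in Cl.3, Cl.9, R1 and R2 at Knockdown, and in none of the Baseline libraries. The calls at the island's own start, at 37916817, were different. There Cl.6 was inside a UMR and a PMD already at Baseline, and Cl.3 was inside a PMD alone at Knockdown.

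**Figure D2:**
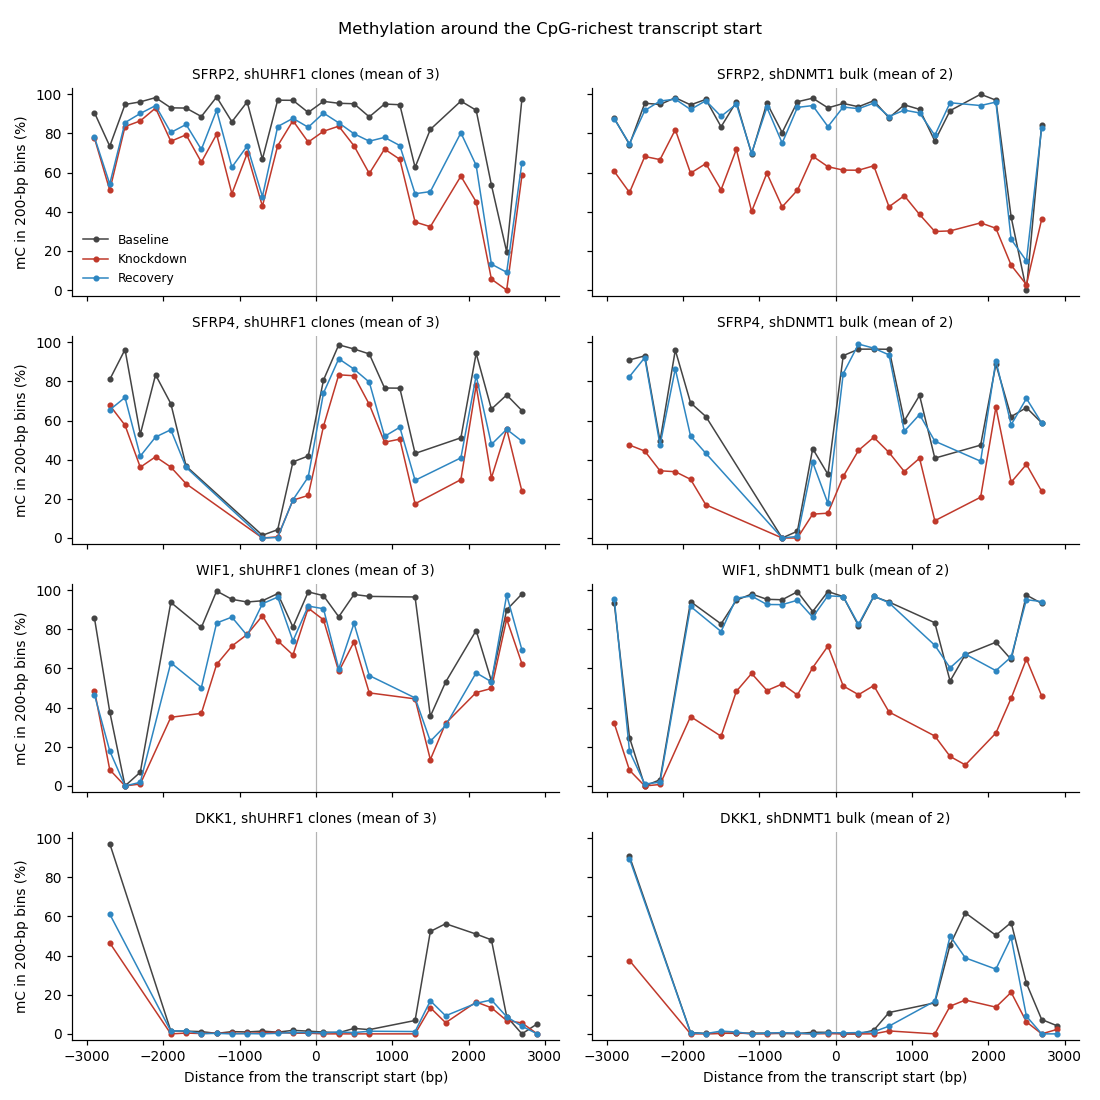
Mean mC in percent in 200-bp bins (vertical axis) against distance in bp from the CpG-richest transcript start (negative, upstream) for SFRP2, SFRP4, WIF1 and DKK1, in the 3 shUHRF1 clones (left) and the 2 shDNMT1 bulk populations (right) at Baseline, Knockdown and Recovery. At Baseline SFRP4 is near 0 in the bins 500 and 700 bp upstream of its start, over 90% in those 300 to 700 bp downstream and partly methylated farther out on both sides, DKK1 stays near 0 around its start and is methylated only on either side, and on the right Recovery lies near Baseline in most bins but below it upstream of the SFRP4 start (17.6% against 32.5% in the bin 100 bp upstream).

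Of the Dickkopf genes, DKK1, whose promoter was unmethylated, had almost nothing to lose, and at Knockdown its promoter read 0.472%, 0.329% and 0.253% in the clones, while R1 and R2 read 0.135% and 0.299%. Its call rested on single libraries. Without Cl.6, whose Baseline value of 2.51% came from 42 methylated reads of 1670, the shUHRF1 result had an edgeR adjusted p of 0.289, in a range of 0.00301 to 0.289 over 11 alternatives. Without R1 the shDNMT1 result had an adjusted p of 0.333, in a range of 0.000434 to 0.451, and limma called neither (adjusted p = 0.0925 and 0.0515). The DKK2 promoter went from 94.0%, 95.0% and 92.2% to 85.0%, 78.1% and 64.7% in the clones. In R1 and R2 it went from 93.2% and 92.1% to 62.4% and 60.8%, the highest Knockdown levels of the 7 methylated promoters in the bulk populations. The CpG-poor and CpG-rich windows of DKK2 parted. At the 5 CpGs around the annotated 5′ end the mean change was -39.5 points with shUHRF1 and -46.2 points with shDNMT1, against -17.8 ± 9.30 (SD, n = 3) and -31.0 ± 0.331 points (SD, n = 2) over the whole promoter. In Cl.9 these 5 CpGs were left with 12.6%, while the island kept 68.5%.

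Pooled over its 5 windows, the DKK3 promoter lost the most among the 8 genes in the clones. It went from 86.9%, 87.4% and 83.5% to 71.9%, 63.8% and 48.3% in the clones and from 85.3% and 85.6% to 42.9% and 44.2% in R1 and R2 (mean changes -24.6 ± 10.1 points, SD, n = 3, and -41.9 ± 0.642 points, SD, n = 2). Its 5 windows did not share 1 level. The island at the 5′ end kept 80.8%, 73.2% and 57.6% in the clones at Knockdown, and the window at 11978916 to 11980916, with 26 CpGs and a Baseline mC of 94.0% to 97.2%, kept 76.0%, 65.6% and 50.8%. The island alone changed by -7.13, -17.6 and -28.6 points, where the single window of SFRP2 changed by -14.0, -15.8 and -33.8 points.

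The promoter of WIF1, which codes for a secreted Wnt-binding protein unrelated to the SFRP family, went from 90.2%, 97.4% and 86.0% to 79.8%, 78.7% and 55.6% in the clones and from 92.6% and 91.0% to 50.6% and 46.7% in R1 and R2. The mean changes were -19.8 ± 10.0 points (SD, n = 3) and -43.1 ± 1.55 points (SD, n = 2). The size of the WIF1 change in the clones depended on which CpGs were counted. At the 17 CpGs of its promoter with at least 5 reads in all 15 libraries it was -34.1 points. The rest of the 117 CpGs had fewer reads in at least 1 library, and the bulk value at these 17 CpGs is not given here. The same limit left 16 of 139 CpGs in the SFRP5 promoter, 18 of 136 in SFRP2, 24 of 116 in SFRP4 and 40 of 202 in SFRP1. Under it, 12 mean changes of the 8 genes moved by more than 1 SD and 52 did not, over promoters and bodies.

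CpG density within the promoters went with the size of the loss in the clones. A CpG whose nearest neighbour lay at least 20 bp away was called low-density, and between 5.76% (SFRP5) and 29.8% (DKK3) of the CpGs of the 7 methylated promoters were of this kind. In the clones, low-density CpGs of the WIF1 promoter changed by -34.5 ± 12.1 points and high-density CpGs by -14.1 ± 9.83 points (SD, n = 3). The same pair of values was -27.1 ± 13.0 and -12.7 ± 7.61 points for DKK2, -31.3 ± 12.2 and -17.5 ± 7.33 points for DKK3, and -27.3 ± 9.22 and -18.5 ± 6.63 points for SFRP1. In all 3 clones the low-density loss was the larger in these 4 genes. SFRP2 had the smaller low-density loss in Cl.6 and SFRP5 in Cl.9, and in SFRP4 the means of -15.0 ± 7.24 and -14.6 ± 2.16 points lay within the spread of the clones.

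In the bulk populations the direction was mixed. The loss was larger at low-density CpGs in both R1 and R2 for SFRP2, DKK2, DKK3 and WIF1, most so for DKK2 at -43.6 ± 4.95 against -25.3 ± 4.21 points (SD, n = 2). In SFRP4 it was larger at high-density CpGs in both, at -36.9 ± 6.48 against -22.4 ± 5.79 points. For SFRP1 the low-density mean of -41.9 ± 0.972 points and the high-density mean of -42.3 ± 5.59 points lay within the spread of R1 and R2. In SFRP5 the populations went opposite ways, with a low-density minus high-density gap of 19.1 points in R1 and -3.73 points in R2 (mean 7.67 ± 16.1 points, SD, n = 2). For WIF1 the gap between low- and high-density CpGs was -20.4 ± 2.24 points in the clones (SD, n = 3) and -8.07 ± 5.02 points in the bulk populations (SD, n = 2). These comparisons within a promoter are given without a test, because the CpGs of a gene share reads, and low-density CpGs were few in SFRP5 (8), SFRP2 (10) and WIF1 (17).

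**Figure D3:**
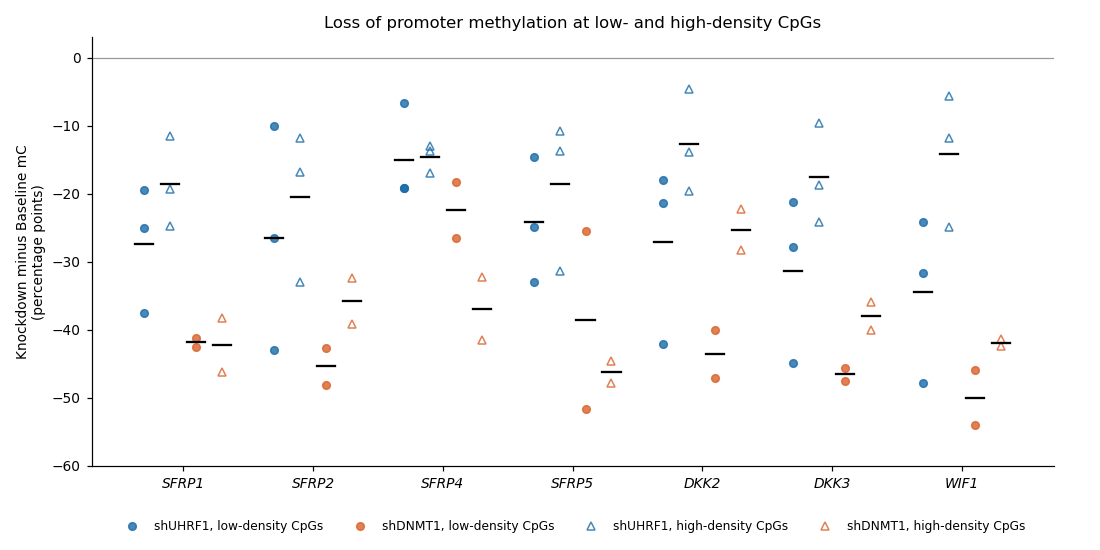
Change in promoter mC from Baseline to Knockdown in percentage points (vertical axis) at low-density CpGs (filled circles) and high-density CpGs (open triangles) of the 7 methylated promoters, with 1 point per population (blue, shUHRF1, and orange, shDNMT1) and black bars for the means. Blue triangles lie above blue circles in mean for all 7 genes, by 20.4 points in WIF1 and by 0.419 points in SFRP4.

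Counted CpG by CpG, the same promoters differed by population. Of the CpGs with a Baseline mC of at least 85% and at least 5 reads at Baseline and Knockdown, those that fell by 30 points or more made up 16.7% (3 of 18), 17.9% (10 of 56) and 52.4% (22 of 42) in the WIF1 promoter of Cl.3, Cl.6 and Cl.9, and 74.4% (32 of 43) and 87.7% (57 of 65) in R1 and R2. In the SFRP1 promoter they made up 14.3%, 27.0% and 50% in the clones and 84.1% and 83.3% in R1 and R2. In the DKK2 promoter they made up 11.3%, 24.7% and 28.3% in the clones and 39.0% and 46.9% in R1 and R2. In the SFRP2 promoter they made up 16.7% (3 of 18), 18.6% (8 of 43) and 54.1% (40 of 74) in the clones and 52.9% (36 of 68) and 49.3% (35 of 71) in R1 and R2, so that Cl.9 was at the level of the bulk populations. In the SFRP4, SFRP5 and DKK3 promoters the clones ranged from 15.4% (DKK3 in Cl.3, 18 of 117) to 63.2% (SFRP5 in Cl.9, 24 of 38). The bulk populations ranged from 68.4% (SFRP5 in R1, 13 of 19) to 100% (SFRP4 in R1, 28 of 28). Some of these shares rest on few CpGs, such as 2 of 9 for SFRP4 and 4 of 16 for SFRP5 in Cl.3. The share over all such CpGs of the genome is not given here. Cl.9 stood above the other clones in each of the 7 methylated promoters, and its genome-wide mC at Knockdown, 42.7%, was also the lowest of the clones.

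The bodies of all 8 genes passed the test as lower in both knockdowns, where 99.8% of all gene bodies passed with shUHRF1 and 99.8% with shDNMT1. The bodies of SFRP1, SFRP5, DKK2 and DKK3 had a Baseline mC of 82.2% to 92.8% and changed by -23.4 to -24.9 points in the mean of the clones and by -39.4 to -41.7 points in the mean of the bulk populations. Over all gene bodies the medians were -21.1 and -40.4 points. The SFRP4 body was less methylated from the start, at 61.8%, 63.7% and 56.3% in the clones and 60.4% and 60.8% in R1 and R2, and it changed by -18.9 ± 6.20 points (SD, n = 3) and -29.0 ± 1.49 points (SD, n = 2). The SFRP2 body, with 58 CpGs, went from 72.6%, 78.4% and 70.0% to 55.8%, 51.8% and 31.6% in the clones, and R1 and R2 ended at 33.9% and 36.2%. The WIF1 body went from 79.3%, 85.2% and 71.9% to 63.7%, 62.4% and 33.1% in the clones, and Cl.9 there ended below R1 and R2, at 40.3% and 38.4%.

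The body of DKK1 was the exception among the 8 bodies, as it was partly methylated next to an unmethylated promoter. Its 12 CpGs, all low-density, read 48.3%, 26.3% and 26.3% at Baseline in the clones, and R1 and R2 had 37.2% and 36.9%. At Knockdown they read 15.2%, 5.98% and 2.80% in the clones and 12.2% and 8.72% in R1 and R2, so that no Knockdown value reached any Baseline value, as in 97.3% of all gene bodies. The log2 odds ratios were -2.76 ± 0.39 with shUHRF1 and -2.35 ± 0.45 with shDNMT1 (SE, edgeR adjusted p = 2.19e-12 and 1.56e-07), on 112 to 289 reads in a library. In the clones the DKK1 body kept 31.4%, 22.7% and 10.6% of its Baseline mC, against 78.8%, 75.6% and 56.9% kept by the SFRP1 body. The median over all gene bodies was 85.8%, 78.4% and 63.4%. Less methylated bodies kept less, with medians of 61.2%, 35.7% and 32.5% over the 101 bodies with a Baseline mC under 20%. With the promoter CpGs included, the change over the whole DKK1 gene was -4.64 points with shUHRF1 and -3.70 points with shDNMT1.

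The bodies could be split by CpG density in all genes except DKK1, and in these 7 bodies the low-density loss was the larger in each of the 3 clones. In DKK2, the longest of the genes, 1405 low-density CpGs changed by -26.9 ± 12.1 points and 616 high-density CpGs by -13.8 ± 7.28 points in the clones (SD, n = 3). With shDNMT1 the same changes were -44.2 ± 1.22 and -33.2 ± 2.07 points (SD, n = 2). The SFRP2 body was the one in which both R1 and R2 lost more at high-density CpGs, by means of -41.9 ± 0.705 against -38.9 ± 1.94 points. As within the promoters, no test was made.

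The second comparison asked how much methylation these genes regained after dox was withdrawn. In the bulk populations none of the 8 promoters or bodies differed from Baseline at Recovery by edgeR's test, and neither did any other, so that 0% of promoters and 0% of gene bodies were called. At an unadjusted p under 0.05, 520 promoters and 322 gene bodies were lower or higher than at Baseline, and limma called 0 promoters and 79 gene bodies. Both edgeR shares lie below that threshold itself. The fit gave clones and bulk populations 1 joint spread, so it could not exclude small changes in the bulk populations. Over all gene bodies the median change from Baseline was -1.06 points in R1 and -1.05 points in R2. The quartiles of their mean change were -1.57 and -0.653 points. All 8 promoters passed as higher than at Knockdown in the bulk populations (98.6% of all promoters did), as did all 8 bodies (99.8% of all). The methylated promoters regained between 91.5% and 104% of the loss in R1 and, apart from SFRP4, between 91.5% and 101% in R2. SFRP4 in R2 regained 62.3%, from 32.9% at Knockdown to 50.3% at Recovery, against 93.5% in R1, and its shortfall of -10.5 points from Baseline was larger than in any clone (-10.2, -4.91 and -7.82 points). The DKK1 body regained 71.7% and 78.6% in R1 and R2, less than the other 7 bodies, at 83.3% to 106%.

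In the shUHRF1 clones the return was partial. The promoters of SFRP1, SFRP2, SFRP5, DKK2, DKK3 and WIF1 were still lower at Recovery than at Baseline, 6 of 8 genes where 74.8% of all promoters passed, and all 8 bodies were still lower where 98.5% of all passed. The SFRP4 body did not pass when populations were not paired (edgeR adjusted p = 0.0827). At Recovery the promoters of these 6 genes lay below R1 and R2 in every clone, as did 44.5% of all promoters and 66.3% of those with a Baseline mC of at least 50%. The median change of the 8 promoters from Baseline was -14.6 points, against -7.63 points over all promoters and -11.1 points over promoters with a Baseline mC of at least 50%. SFRP4 (-7.63 ± 2.63 points, SD, n = 3, edgeR adjusted p = 0.0755) and DKK1 (-0.696 ± 1.48 points, adjusted p = 0.0782) did not pass. SFRP4 passed by limma (adjusted p = 0.0394) and at CpGs with at least 5 reads in all libraries (adjusted p = 0.0223), in a range of 0.0223 to 0.338 over 11 alternatives. DKK1 passed without Cl.3 (adjusted p = 0.0451) and without Cl.9 (adjusted p = 0.00856), in a range up to 0.363.

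From Knockdown to Recovery, only DKK2 and DKK3 passed as higher among the 8 promoters of the clones, where 49.6% of all promoters passed. The DKK2 promoter went from 85.0%, 78.1% and 64.7% to 87.6%, 88.9% and 76.8%, and the DKK3 promoter from 71.9%, 63.8% and 48.3% to 76.3%, 75.8% and 58.8% (log2 odds ratios 0.78 ± 0.24 and 0.59 ± 0.17, SE, edgeR adjusted p = 0.00984 and 0.0058). Neither passed without Cl.6 (edgeR adjusted p = 0.141 and 0.0843), and neither when populations were not paired (0.359 for both, the highest of the alternatives). The SFRP2 promoter passed by limma (adjusted p = 0.0458) and without Cl.3 (edgeR adjusted p = 0.0351).

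The pooled mC of the WIF1 promoter moved the least among the methylated promoters. It read 79.8%, 78.7% and 55.6% at Knockdown and 79.8%, 85.3% and 52.9% at Recovery, so that the share of the loss regained was -0.559%, 35.2% and -8.79% in Cl.3, Cl.6 and Cl.9. The change was 1.29 ± 4.77 points (SD, n = 3, log2 odds ratio 0.15 ± 0.27, edgeR adjusted p = 0.621). Here too the reads were spread differently between stages. Low-density CpGs held 29.4%, 34.7% and 27.6% of the WIF1 promoter's reads at Knockdown and 40.3%, 28.7% and 41.2% at Recovery in the clones. Taken apart, the low-density CpGs changed by 5.45, 2.32 and -2.30 points and the high-density CpGs by 2.38, 6.66 and 4.67 points, so that only the low-density CpGs of Cl.9 went down. In R1 and R2 the same promoter regained 92.6% and 101%. For promoters with a Baseline mC of at least 50% and a loss of at least 10 points, the median share regained was 46.2%, 48.0% and 39.4% in the clones and 97.0% in both bulk populations. The SFRP1 promoter regained 53.5%, 41.6% and 8.50%, and the SFRP5 promoter 31.4%, 17.1% and 23.1%, below these medians in each clone for SFRP5. The promoters of DKK2 (63.6%), SFRP2 (55.1%), SFRP4 (54.1%) and DKK3 (50.8%) lay above the median in Cl.6, and that of DKK2 (43.9%) also in Cl.9. In Cl.3 the DKK2 promoter lost 8.98 points, under the 10-point limit, and rose by 2.64 points. Its CpG-poor and CpG-rich windows regained 34.5% and 24.8% in Cl.3, below the median there. SFRP2, SFRP4 and DKK3 lay below the median in Cl.3 (27.0%, 23.3% and 29.8%) and in Cl.9 (20.2%, 32.0% and 29.8%). Taken window by window, the SFRP1 island at the 5′ end regained 46.3%, 64.2% and 14.8% and the second SFRP1 window 53.9%, 52.3% and 20.8%, so that both exceeded the pooled value in Cl.6 and Cl.9 and the 48.0% median in Cl.6. Low-density CpGs held 26.6% of the SFRP1 promoter's reads in Cl.9 at Knockdown and 32.2% at Recovery.

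The shortfall at Recovery also differed with CpG density, though not in every gene. At Recovery the low-density CpGs of the WIF1 promoter stood -32.7 ± 15.9 points from Baseline in the clones and the high-density CpGs -9.55 ± 9.29 points (SD, n = 3). For DKK2 these shortfalls were -16.9 ± 8.64 and -6.01 ± 3.35 points, and for SFRP1 -17.9 ± 9.29 and -13.3 ± 8.68 points. In these 3 promoters and in SFRP2 and DKK3 every clone had the larger shortfall at low-density CpGs. The shortfall was the larger at high-density CpGs for SFRP4 in Cl.3 (-16.1 against -10.1 points) and Cl.6 (-6.04 against -1.30 points), and for SFRP5 in Cl.3 (-8.10 against -5.14 points) and Cl.9 (-23.6 against -15.5 points). A shortfall includes the loss at Knockdown and does not measure regain. From Knockdown to Recovery, low-density CpGs of SFRP1 rose by 7.91, 11.6 and 8.94 points and high-density CpGs by 5.62, 8.25 and 1.90 points. In Cl.3 the low-density rise was the larger in every methylated promoter, and in Cl.9 in all but SFRP4 and WIF1. In Cl.6 it was the larger in SFRP1 alone. The windows of DKK3 regained unequally in Cl.9, where the downstream window of 26 CpGs went from 50.8% at Knockdown to 66.4% at Recovery and the island from 57.6% to 61.8%.

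**Figure D4:**
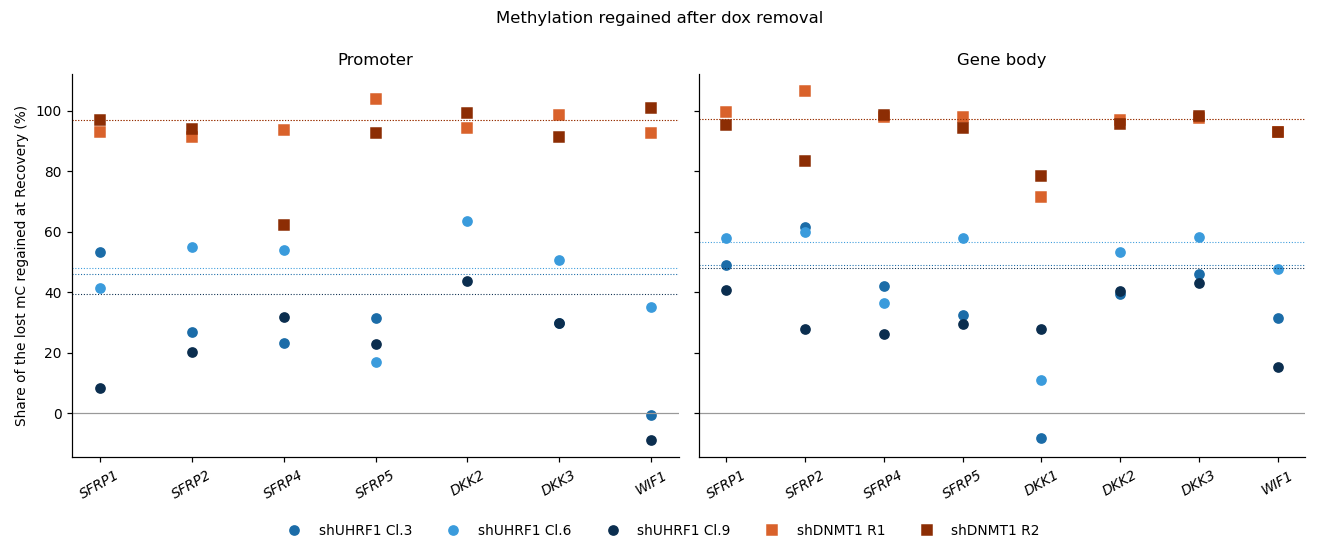
Share of the mC lost at Knockdown that was regained at Recovery, in percent (vertical axis), for promoters (left) and gene bodies (right) that had lost at least 10 points, with 1 point per population and dotted lines for the median of all features with a Baseline mC of at least 50% and such a loss. The squares of R1 and R2 lie above 90 except the SFRP4 promoter in R2 (62.3%), the SFRP2 body in R2 (83.3%) and the DKK1 body, and among the promoters that of WIF1 lies lowest in Cl.3 and Cl.9.

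Gene bodies in the clones passed as higher at Recovery than at Knockdown in 6 of the 8 genes, where 85.5% of all gene bodies passed. The 2 that did not were SFRP4 (adjusted p = 0.0999) and DKK1 (adjusted p = 0.184). The DKK1 body read 15.2%, 5.98% and 2.80% at Knockdown and 12.5%, 8.24% and 9.36% at Recovery, with the direction differing between Cl.3 and the other clones, and it passed by limma (adjusted p = 0.0158) and without Cl.3 (adjusted p = 0.0311), in a range of 0.0158 to 0.94 over 10 alternatives. The SFRP4 body passed without Cl.3 (adjusted p = 0.0126). Without Cl.6 only the DKK3 body passed, 1 of 8, where 59.9% of all gene bodies did, and when populations were not paired 0 of 8 and 0 of all 18496 bodies did (either direction). The WIF1 body was lost by limma (adjusted p = 0.0659) and without R1 or R2 (adjusted p = 0.113 for both). At Recovery the 5′ ends of DKK2, SFRP2, SFRP5 and WIF1 were listed inside an HMD in Cl.3, Cl.6, R1 and R2, and inside a PMD in Cl.9. That of SFRP1 lay in no listed domain in Cl.3, Cl.6 and R1, inside a PMD in Cl.9 and inside an HMD in R2, and that of DKK3 in none in Cl.6. The 5′ end of SFRP2 in Cl.6 had stayed inside an HMD at Knockdown.

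The third comparison set the 2 hairpins against each other by an interaction term. The loss at Knockdown was smaller with shUHRF1 in the promoters of SFRP1, SFRP2, SFRP4, SFRP5, DKK3 and WIF1, 6 of 8 genes where 48.7% of all promoters passed in this direction. Most of these 6 calls were lost at CpGs with at least 5 reads in all libraries, as counted in the closing sections. The 48.7% here and the 33.6% at Recovery below are shares over promoters of every Baseline level. The shares among promoters with a Baseline mC of at least 50%, as 7 of the 8 genes had, are not given here. The differences in log2 odds ratio ran from 0.99 ± 0.26 (DKK3) to 1.34 ± 0.45 (WIF1), and that of DKK2 was 0.74 ± 0.39 (SE, edgeR adjusted p = 0.105). In the bodies, SFRP1, DKK2, DKK3 and WIF1 passed, 4 of 8 where 81.6% of all gene bodies did. The DKK1 body had a difference of -0.41 ± 0.61 (adjusted p = 0.507), with mean changes of -25.7 ± 6.67 points (SD, n = 3) and -26.6 ± 2.27 points (SD, n = 2).

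At Recovery the shortfall from Baseline was larger with shUHRF1 in the promoters of SFRP1, SFRP2, SFRP5, DKK2, DKK3 and WIF1, 6 of 8 genes where 33.6% of all promoters passed, and in all 8 bodies, where 88.9% passed. The largest difference among the promoters was that of WIF1 (-1.82 ± 0.47, SE, edgeR adjusted p = 0.00589) and among the bodies that of DKK1 (-1.73 ± 0.56, adjusted p = 0.004). For SFRP4 the promoter difference was -0.08 ± 0.36 (adjusted p = 0.87). These differences rested on both bulk populations. Without R1 or without R2, 0 of the 8 genes passed in either region at Knockdown or at Recovery, where 13.5% and 3.90% of all promoters passed at Knockdown and 1.53% and 1.61% at Recovery, and at most 0.0811% and 1.84% of all gene bodies (either direction, as in the shares that follow). When populations were not paired 0 of the 8 passed, and over all features only 1 promoter did, at Recovery. Without Cl.6, 1 of the 8 bodies passed at Knockdown (63.9% of all bodies) and 4 promoters at Recovery (19.7% of all promoters). Without Cl.9, 7 bodies passed at Knockdown (94.4% of all) and 3 promoters at Recovery (17.8% of all). By limma the WIF1 promoter had an adjusted p of 0.0539 at Knockdown, in a range of 0.0116 to 0.462 over 11 alternatives.

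Most other promoters of the Wnt pathway were also lower at Knockdown, at about the share of all promoters (97.0% with shUHRF1 and 98.7% with shDNMT1). Of 13 other secreted inhibitors and their receptors, 12 promoters passed as lower with shUHRF1 and 13 with shDNMT1, of 19 Wnt ligands 19 and 19, of 24 receptors and potentiators 22 and 23, and of 26 intracellular components 26 and 26, and none passed as higher. KREMEN2, a receptor for Dickkopf proteins (adjusted p = 0.0737), and the Frizzled genes FZD2 (0.121) and FZD9 (0.85) did not pass with shUHRF1, and FZD2 (0.0524) did not pass with shDNMT1 (edgeR). Their median Baseline mC was 57.3%, 52.6%, 39.7% and 51.8%, and 8, 10, 7 and 13 of them were at or above 50%. The median changes with shUHRF1 were -16.7, -15.1, -11.2 and -13.8 points and with shDNMT1 -27.6, -27.9, -18.6 and -23.6 points, where the medians of all promoters were -13.9 and -23.9 points.

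The largest falls among the other inhibitors belonged to CER1, an antagonist of Nodal, BMP and Wnt ligands (-33.3 ± 15.2 points with shUHRF1, SD, n = 3), SOST, which codes for the LRP-binding sclerostin (-31.6 ± 10.5), and DKK4, a further Dickkopf gene (-30.3 ± 18.9). With shDNMT1 they belonged to IGFBP4, a growth factor-binding protein (-56.8 ± 4.18 points, SD, n = 2), SOST (-51.7 ± 5.96) and DKK4 (-46.2 ± 3.94). Among the ligands WNT8A, WNT9B and WNT8B fell by 25.6, 23.6 and 22.9 points with shUHRF1 and by 41.7, 43.7 and 44.3 points with shDNMT1.

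Among receptors and potentiators the R-spondin genes RSPO4 and RSPO2, whose products enhance Wnt signals, and LGR6, an R-spondin receptor, changed by -20.6, -18.8 and -20.1 points with shUHRF1. With shDNMT1, RSPO1, RSPO3 and LGR6 fell by 40.0, 39.9 and 39.6 points. Among intracellular components APC2, NKD2 and DACT2 fell by 18.9, 18.9 and 18.8 points with shUHRF1, and DACT2, TCF7L2 and TCF7L1 fell by 37.5, 37.4 and 36.4 points with shDNMT1. The promoter of FZD9, a Frizzled receptor gene, had a change of -0.592 ± 3.89 points with shUHRF1 (SD, n = 3, edgeR adjusted p = 0.85) and of -12.7 points with shDNMT1.

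Genes whose promoter mC followed that of an antagonist gene most closely over the 15 libraries were KCNC2 for DKK2, with a root-mean-square difference of 1.19 points, ECE2 for DKK3 (1.35), ALKAL1 for SFRP2 (1.39), CATIP for SFRP5 (1.79), PCDH8 for SFRP1 (2.30), PACSIN2 for SFRP4 (2.47) and SIAH3 for WIF1 (3.03). Of all pairs among the 8 genes the most alike were SFRP1 and DKK3, at 3.60 points, and SFRP5 and WIF1, at 4.26 points. WIF1 thus had the least close match of the 7 methylated promoters. SIAH3 had mean changes of -24.3 and -41.8 points with shUHRF1 and shDNMT1, and KCNC2 of -16.9 and -32.8 points.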

How the data were processed

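The 8 genes and the gene lists were chosen with earlier results of these data known. According to the methods, the authors sequenced bisulfite-treated DNA of 15 HCT116 libraries, aligned the reads to hg38 with the Meth10X pipeline and deposited raw counts, as 3 tables of the methylated reads and of all reads at every CpG. They also deposited lists of domains per library, each with its start, end and class, for which the submitters' notes name bedtools 2.25.0. Per the methods, MethylSeekR called the PMDs, UMRs and low-methylated regions, and bedtools gave the stretches outside them. Such a stretch was listed as an HMD only if its average mC reached a set threshold, so that a site can lie in no listed domain. The aligner's settings were not given in the sources used here. All columns were mapped to samples by their names.

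Counts of methylated and unmethylated reads were summed over promoters (1000 bp on either side of each GENCODE release 44 transcript start) and over the rest of each protein-coding gene on chromosomes 1 to 22, X and Y. Features were kept at 5 or more CpGs and at 50 or more reads per library, and were tested with edgeR 4.0.16 (quasi-likelihood test on a methylation design, R 4.3.3), with all 15 libraries in 1 fit, the population as a block and 8 contrasts. Features with a Benjamini-Hochberg adjusted p under 0.05 passed. limma 3.58.1 on log2 of methylated over unmethylated reads (pseudocount 1) was an alternative. The labels name the same clone or bulk replicate at each stage, which is the pairing used. Across promoters, deviations from the group mean correlated between stages with r of 0.204 to 0.806 in clones and 0.0151 to 0.0451 in bulk populations. No 2 libraries of a group were duplicates, since the mean chi-square per promoter was 6.42 or more. Per the methods, each clone was grown from a single cell of the transduced cells, and R1 and R2 are told apart by their names alone. The test held 1 estimate of the spread for clones and bulk populations together, with information shared over features. A p-value therefore reflects this joint spread and not that of the bulk populations alone. On simulated counts for 19382 promoters in the contrast of shUHRF1 Knockdown with Baseline, edgeR found 92% of log2 odds ratios of -1 and 100% of those of -2, with 4.95% of calls false. The simulation changed 100 promoters per effect size. It gave every library the same independent noise, with no differences between populations. In the real data 97.0% of promoters passed as lower in this contrast and the clones differed widely, so these rates may not hold there.

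The text names all 8 genes, per hairpin the 3 promoters of each list with the largest fall at Knockdown among those that passed, and the closest gene for each methylated promoter. FRZB, FZD2, FZD9, KREMEN2 and the CpG windows within promoters were chosen after their values were seen. A CpG counted as low-density when no other CpG lay closer than 20 bp. Sequences came from the hg38 reference. Reads per CpG set the precision. Wilson intervals reflect counting error alone, because several reads can stem from 1 molecule. Tests on other windows, other coverage limits and without each population are given at the end.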

Additional observations from a re-analysis of the deposited data

Results flagged for a closer look

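The results below drew attention because the change of a gene differed between the shUHRF1 clones and the shDNMT1 bulk populations by a test of the difference itself, the interaction term of the edgeR fit. Values are differences in log2 odds ratio, shUHRF1 minus shDNMT1, with SE and edgeR adjusted p. They rest on 3 clones and 2 bulk populations, and the hairpin cannot be told apart from the kind of population. None of them passed without R1, without R2 or when populations were not paired (adjusted p of 0.183 to 0.477 in the unpaired fit), and the deviations of R1 and R2 correlated between stages with r of only 0.0151 to 0.0451. At CpGs with at least 5 reads in all libraries, 1 of the 8 promoters passed at Knockdown, where 45.5% of all promoters did.

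For the promoters at Knockdown the differences were 1.27 for SFRP1, 1.10 for SFRP2, 1.20 for SFRP4, 1.29 for SFRP5, 0.99 for DKK3 and 1.34 for WIF1, with SEs of 0.26 to 0.45 and adjusted p of 0.00481 (DKK3) to 0.027 (SFRP2). In each the clones had lost less by the fitted odds ratio, although the SFRP2 promoter changed by -33.8 points in Cl.9 and by -33.5 points in R2. For the promoters at Recovery they were -0.96 for SFRP1, -1.25 for SFRP2, -1.53 for SFRP5, -1.25 for DKK2, -1.13 for DKK3 and -1.82 for WIF1, with SEs of 0.27 to 0.47 and adjusted p of 0.00335 (DKK3) to 0.046 (SFRP1). In each the clones had stayed farther below Baseline. SFRP4 had the first difference and did not pass the second (-0.08 ± 0.36), and DKK2 had the second and did not pass the first (0.74 ± 0.39).

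For the gene bodies at Knockdown the differences were 0.97 for SFRP1, 1.04 for DKK2, 1.00 for DKK3 and 0.77 for WIF1, with SEs of 0.35 to 0.36 and adjusted p of 0.00478 to 0.0384. At Recovery they were -0.98 for SFRP1, -0.82 for SFRP2, -0.72 for SFRP4, -1.43 for SFRP5, -1.73 for DKK1, -1.23 for DKK2, -1.13 for DKK3 and -1.06 for WIF1, with SEs of 0.35 to 0.56 and adjusted p of 0.00136 to 0.0457. The DKK1 body stood at 12.5%, 8.24% and 9.36% at Recovery in the clones and at 30.1% and 30.9% in R1 and R2.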

How the results depend on the processing

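Of the calls of the 8 genes under the alternatives tried, 1181 were on the same side of the threshold as reported, 137 no longer passed, 18 passed newly and none reversed. Among the calls of Knockdown against Baseline, only those of the DKK1 promoter and of the SFRP4 promoter with shUHRF1 were lost under any alternative, and the mean changes of the 8 genes stayed within 1 SD in 332 cases and moved farther in 52. When libraries were not treated as paired by population (no block), counts fell to 5793 promoters for shUHRF1 Recovery against Baseline, and to 0 of the 8 genes and 0 of all features for shUHRF1 Recovery against Knockdown and for both differences between hairpins, except 1 promoter for the difference at Recovery. The cause was not tested.

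Window choice moved counts too. With 500 bp windows, 5524 promoters passed for shUHRF1 Recovery against Knockdown, 4462 for the difference at Knockdown, and 3412 with 3 of the 8 genes for the difference at Recovery. With only the gene's 5′ end, where 7 of the 8 genes could be tested, these were 3327 with 0 of the 8, and 2815 with 3 of the 8. At CpGs with at least 5 reads in all libraries, 1 of the 8 promoters passed for the difference at Knockdown, where 45.5% of all did. With whole genes 7 of the 8 passed there, where 82.1% of all did, and limma called 79 bodies for shDNMT1 Recovery against Baseline.

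With each population left out in turn, promoters of the 8 genes that passed ranged from 0 to 3 for shUHRF1 Recovery against Knockdown (0 without Cl.6), from 0 to 7 for the difference at Knockdown and from 0 to 6 at Recovery (0 without R1 or R2), and bodies from 1 to 8, 0 to 7 and 0 to 8. Over all promoters the ranges were 3718 to 9923, 755 to 12511 and 296 to 10654, and over all bodies 3 to 17452 and 235 to 17841 for the differences, and 0 to 1 for shDNMT1 Recovery against Baseline. Without R1 or R2 the lone bulk population was assumed to vary like the clones.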

Other observations

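Among the other secreted inhibitors and their receptors, 11 of 13 promoters were still lower than Baseline at Recovery in the shUHRF1 clones and 0 of 13 in the shDNMT1 bulk populations by edgeR's test. The counts in the clones were 16 of 19 for Wnt ligands, 15 of 24 for receptors and potentiators and 19 of 26 for intracellular components, where 74.8% of all promoters passed. The 3 promoters of the inhibitor list that had fallen most with shUHRF1 were also below Baseline at Recovery in the mean of the clones. Their changes were -28.0 ± 17.5 points for CER1, -19.7 ± 14.9 points for DKK4 and -19.4 ± 7.01 points for SOST (SD, n = 3), against -2.46, 0.414 and -0.351 points in the mean of the bulk populations. They were picked by their fall from the same Baseline libraries, so these shortfalls are not independent of the choice. The promoter of FRZB, which codes for a further frizzled-related protein, had a Baseline mC of 96.5% and a change of -9.39 ± 5.43 points (SD, n = 3) at Recovery in the clones.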
